A study of Mus musculus with 12 samples.

Results

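The genes described here lie on both sides of Kcnip3 on mouse chromosome 2. They are the protein-coding genes within 10 Mb of it, from position 117456498 to 137522094 of the mm10 build, that had more than 1 CPM (counts scaled to the total of the library) in at least 3 libraries. Of 254 protein-coding genes in that stretch, 201 met the level, and 186 remained after Kcnip3 and 14 other genes were set aside by name (Pla2g4e, Haus2, Ivd, Strc, Bub1b, Tgm7, Eif3j1, Mfap1a, Mfap1b, Pcna, B2m, Pdyn, Snap25 and Plcb1). The 186 flanking genes are a small share of the 55385 genes in the count table, of which 16120 passed the same level. There were 111 at lower coordinates than Kcnip3 and 75 at higher coordinates, and distances below are negative on the lower side.

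Gene expression was measured by RNA-seq of the hippocampus of adult mice in 4 genotypes with 3 libraries each. Kcnip3 KO mice carry the knockout of Kcnip3, labelled as homozygous, and Kcnip3 KO-5xFAD mice carry it together with the 5xFAD transgenes. WT mice have neither change, and 5xFAD mice carry the transgenes with Kcnip3 intact. The 6 libraries of the Kcnip3 KO and Kcnip3 KO-5xFAD genotypes are called knockout libraries, and the 6 WT and 5xFAD libraries are called intact libraries. The labels give neither the strain, sex or exact age of the mice nor the design of the knockout allele. They speak of triplicates without saying that each is a separate animal, so p-values measure the spread between libraries, which may be technical.

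Kcnip3 encodes KChIP3, also called DREAM or calsenilin, a calcium-binding protein of neurons that binds potassium channels and, in the nucleus, represses genes through the DNA motif GTCA. Genes close to a targeted locus are inherited together with it, because recombination seldom separates near neighbours. 5xFAD mice express mutant human amyloid precursor and presenilin proteins in neurons under Thy1 sequences. The question put to the flanking genes was the sign and size of their difference between knockout and intact libraries, by distance from Kcnip3.

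The libraries held 7664407 to 11310714 counts, and levels are given as CPM scaled by the trimmed mean of M-values (TMM). Kcnip3 had 71.4, 63.4 and 125 CPM in Kcnip3 KO and 84.9, 68.7 and 70.1 CPM in Kcnip3 KO-5xFAD, against 159.9, 158 and 162 CPM in the WT libraries and 139, 156 and 138 CPM in 5xFAD. Every knockout library was below every intact one, and the library labelled Kcnip3 KO 3 was the nearest to them. Thy1, whose sequences drive the transgenes, had 3381, 926 and 2592 CPM in Kcnip3 KO-5xFAD and 749, 792 and 868 CPM in Kcnip3 KO, against 2869.8, 4236 and 2949 CPM in the 5xFAD libraries and 747, 887 and 2277 CPM in WT. The libraries labelled Kcnip3 KO-5xFAD 2 and WT 3 thus went against their labels for the transgenes, though not for Kcnip3. Defining markers of excitatory neurons were present in every library, with summed levels of 4119 to 6066 CPM in knockout libraries and 4248 to 6767 CPM in intact ones. Choroid plexus markers varied widely on both sides, at 369 to 4531 CPM in knockout libraries and 101 to 8963 CPM in intact ones. In bulk tissue, fewer cells of a type and less RNA per cell cannot be told apart.

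No flanking gene passed the test over all genes, but a larger share of them than of all tested genes had an unadjusted p under 0.05. Of the 186, 183 passed the filter on low counts and entered the test. In edgeR's quasi-likelihood test with Benjamini-Hochberg adjustment over 15905 genes, 0 of the 183 had an adjusted p under 0.05 in knockout against intact, where 14 genes (0.088%) were called. The genes set aside held 10 of those 14 calls, so the count of 0 follows largely from which genes were set aside. At an unadjusted p under 0.05 there were 40 of the 183 (21.9%), 20 higher and 20 lower in knockout, where 8.47% of all tested genes lay (4.69% higher and 3.78% lower). The median absolute log2 fold change was 0.14 over the flanking genes and 0.11 over all tested genes, and 0.92 over the 15 genes set aside. Log2 fold changes of the flanking genes ran between -0.92 (Pla2g4b, of whose 31-base words 65.1% also occur in Gm28042) and 1.20 (Gchfr), and 173 of the 183 were under 0.5 in size. Gchfr and Gpat2 were over 1 CPM in knockout libraries only, and Prom2 in intact libraries only, so the level that chose the genes fixed the sign of these 3. As many flanking genes were higher in knockout as lower (92 of 183, or 50.3%, against 51.4% of all tested genes).

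**Figure D1:**
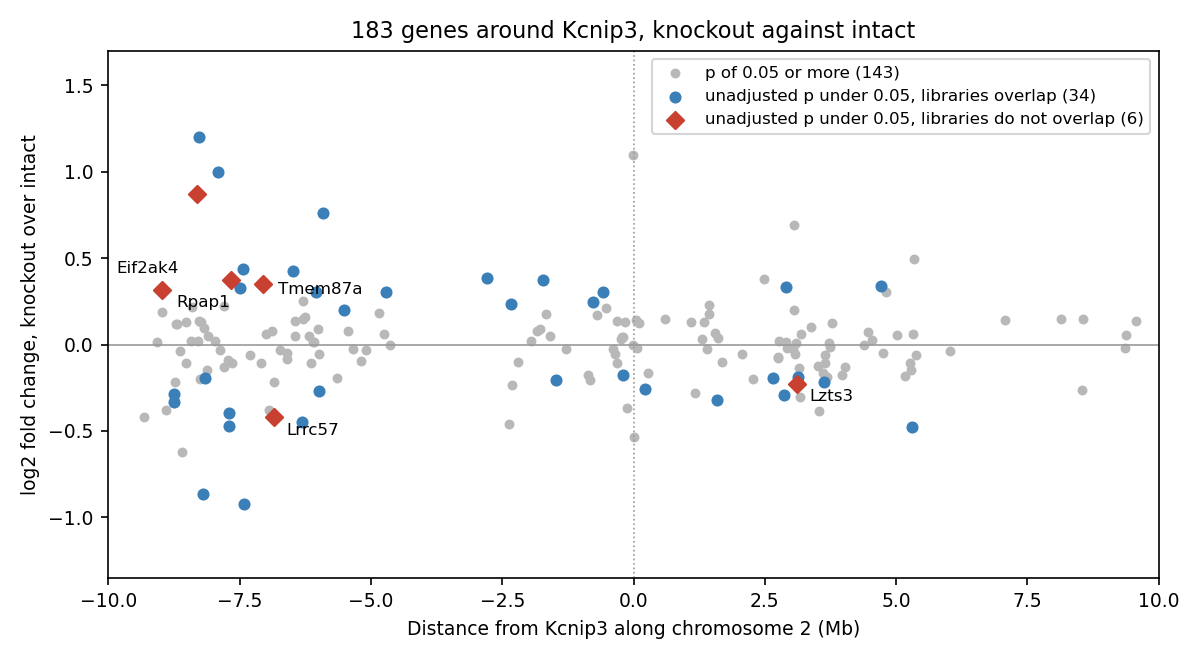
Log2 fold change of each of the 183 tested flanking genes (knockout over intact, 6 libraries each) against distance from Kcnip3 in Mb, negative at lower coordinates. Grey points had an unadjusted p of 0.05 or more, blue points were under it, and the 6 red diamonds also had knockout and intact libraries that do not overlap; 5 of those 6 lie at lower coordinates.

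The share with an unadjusted p under 0.05 was higher at lower coordinates than Kcnip3 and did not peak next to it. Between 10 and 7.5 Mb below Kcnip3, 11 of 37 genes (29.7%) had an unadjusted p under 0.05, and between 7.5 and 5 Mb below, 11 of 36 (30.6%). The stretch from 5 to 2.5 Mb below held only 5 tested genes, 2 of them (40%) under 0.05, and the 2.5 Mb next to Kcnip3 on that side held 6 of 30 (20%). On the other side the counts were 2 of 21 (9.52%) within 2.5 Mb, 7 of 38 (18.4%) from 2.5 to 5 Mb, 1 of 10 from 5 to 7.5 Mb and 0 of 6 beyond. On neither side was the share highest in the bin next to Kcnip3. Taken by side, 30 of 108 genes (27.8%) were under 0.05 at lower coordinates, 18 higher and 12 lower in knockout. At higher coordinates they were 10 of 75 (13.3%), 2 higher and 8 lower in knockout. The difference between the sides was not tested, and neighbouring genes are not independent.

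**Figure D2:**
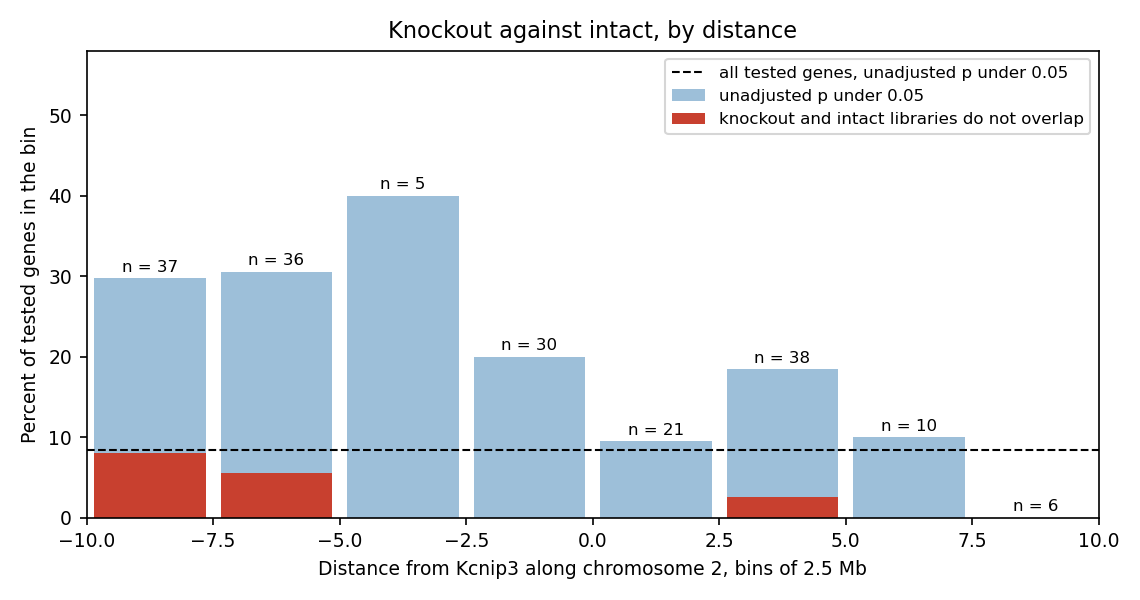
Percent of tested flanking genes in each 2.5 Mb bin that had an unadjusted p under 0.05 in knockout against intact (pale bars), and of those whose knockout and intact libraries do not overlap (red bars, drawn over the pale ones), by distance from Kcnip3. The dashed line marks 8.47%, the share over all tested genes; bins at lower coordinates reach 20% to 40%, and n is the number of tested genes in the bin.

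Further out on the same chromosome the shares were lower than the 21.9% of all flanking genes, though from 10 to 20 Mb not lower than the 13.3% of those at higher coordinates. Among protein-coding genes of chromosome 2 between 10 and 20 Mb from Kcnip3, 9 of 63 (14.3%) had an unadjusted p under 0.05, and beyond 20 Mb 91 of 873 (10.4%). On the other chromosomes it was 1099 of 13092 (8.39%). Just outside the window, Rasgrp1 at -10.1 Mb had a log2 fold change of 0.24 and Btbd3 at 10.7 Mb one of 0.20.

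Neither of the 2 outermost tested genes at each end of the stretch had an unadjusted p under 0.05. On the lower end, Thbs1, which encodes the secreted matrix protein thrombospondin 1, had 1.81 ± 0.69 CPM in knockout and 2.37 ± 0.78 CPM in intact libraries (SD, n = 6 each; log2 fold change -0.42). Gpr176, an orphan G protein-coupled receptor, had 14.3 ± 2.22 CPM in knockout and 14.1 ± 1.81 CPM in intact libraries. On the higher end, Jag1, a Notch ligand, had 5.77 ± 0.99 CPM in knockout and 5.22 ± 0.90 CPM in intact libraries. Slx4ip, which encodes a partner of the SLX4 nuclease scaffold, had 5.10 ± 0.52 CPM in knockout and 5.09 ± 2.14 CPM in intact libraries.

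In 6 of the 183 genes (3.28%) the 6 knockout libraries did not overlap the 6 intact ones, against 0.302% of all tested genes. There were 4 genes (2.19%, against 0.151%) higher in every knockout library, among them Eif2ak4, Rpap1 and Tmem87a, and 2 genes (1.09%, against 0.151%), Lrrc57 and Lzts3, lower in every one. Among protein-coding genes of chromosome 2 beyond 20 Mb the share was 0.573%, and from 10 to 20 Mb it was 0 of 63.

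Rpap1 (ENSMUSG00000034032, chromosome 2, 119763304 to 119787537, minus strand, -7.67 Mb) encodes a protein that associates with RNA polymerase II. It had 41.3, 42.5 and 42.2 CPM in Kcnip3 KO and 39.8, 40.1 and 40.4 CPM in Kcnip3 KO-5xFAD, against 34.2, 31.9 and 29.2 CPM in the WT libraries and 31.6, 30.3 and 32.7 CPM in 5xFAD. The lowest knockout library stood above the highest intact one, in both backgrounds and across them. The means were 41.1 ± 1.14 CPM in knockout and 31.7 ± 1.75 CPM in intact libraries (SD, n = 6 each). Its log2 fold change was 0.37 ± 0.07 (SE), and the adjusted p of edgeR's quasi-likelihood test was 0.0519, just over the threshold. It was called at the same size in the fit without an interaction (adjusted p = 0.0344), in DESeq2 (0.00246), with a filter of 50 counts in 3 libraries (0.0493) and with no filter (0.0346). It was not called with either other scaling, limma-voom, limma on log2 TPM or the replicate block, nor in any fit that left out libraries. Over all settings its adjusted p reached 0.329.

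Tmem87a (ENSMUSG00000033808, 120355312 to 120404113, minus strand, -7.05 Mb) encodes a membrane protein of the Golgi. It had 34.8, 29.8 and 35.8 CPM in Kcnip3 KO and 31.5, 33.7 and 33.6 CPM in Kcnip3 KO-5xFAD, against 28.8, 24.2 and 26.8 CPM in the WT libraries and 25.5, 25.2 and 25.5 CPM in 5xFAD. Every knockout library was above every intact one, with the gap narrowest between Kcnip3 KO 2 and WT 1. The log2 fold change was 0.35 ± 0.08 (SE), with an adjusted p of 0.254 in edgeR. Its exons overlap those of Ganc on the other strand by 209 bases, and the strand setting of the counting is not given in the sources used here.

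Lrrc57 (ENSMUSG00000027286, 120604238 to 120609520, minus strand, -6.85 Mb) encodes a leucine-rich repeat protein. It had 23.1, 17.8 and 22.8 CPM in Kcnip3 KO and 17.5, 22.2 and 21.5 CPM in Kcnip3 KO-5xFAD, against 24.6, 29.0 and 34.4 CPM in the WT libraries and 28.4, 24.7 and 26.0 CPM in 5xFAD. The knockout libraries were all lower, and the spread was wide within Kcnip3 KO and within WT. The log2 fold change was -0.42 ± 0.11 (SE; edgeR adjusted p = 0.514). Lrrc57 starts head to head with Haus2, a gene set aside above that was called lower in knockout (log2 fold change -0.95, edgeR adjusted p = 0.000346), and their exons overlap by 138 bases on opposite strands. How far reads of Haus2 were counted to Lrrc57 was not tested.

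Eif2ak4 (ENSMUSG00000005102, 118388618 to 118475234, plus strand, -8.98 Mb) encodes GCN2, the kinase that slows translation when amino acids are scarce. It had 28.0, 28.0 and 33.9 CPM in Kcnip3 KO and 27.4, 26.7 and 28.0 CPM in Kcnip3 KO-5xFAD, against 24.4, 24 and 23.9 CPM in the WT libraries and 24.1, 18.7 and 22.8 CPM in 5xFAD. The knockout libraries lay just above the intact ones, apart from a high Kcnip3 KO 3 and a low 5xFAD 2. Its log2 fold change was 0.32 ± 0.08 (SE; edgeR adjusted p = 0.514).

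Lzts3 (ENSMUSG00000037703, 130632839 to 130642803, minus strand, 3.11 Mb) is the only one of the 6 at higher coordinates than Kcnip3. It encodes a postsynaptic protein that binds Shank scaffolds. Its levels were 261, 245 and 241 CPM in Kcnip3 KO and 220.0, 268 and 263 CPM in Kcnip3 KO-5xFAD, against 275, 312 and 292 CPM in the WT libraries and 316, 279.8 and 281 CPM in 5xFAD. The highest knockout library, at 268 CPM, was just under the lowest intact one. The log2 fold change was -0.23 ± 0.07 (SE; edgeR adjusted p = 0.544).

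**Figure D3:**
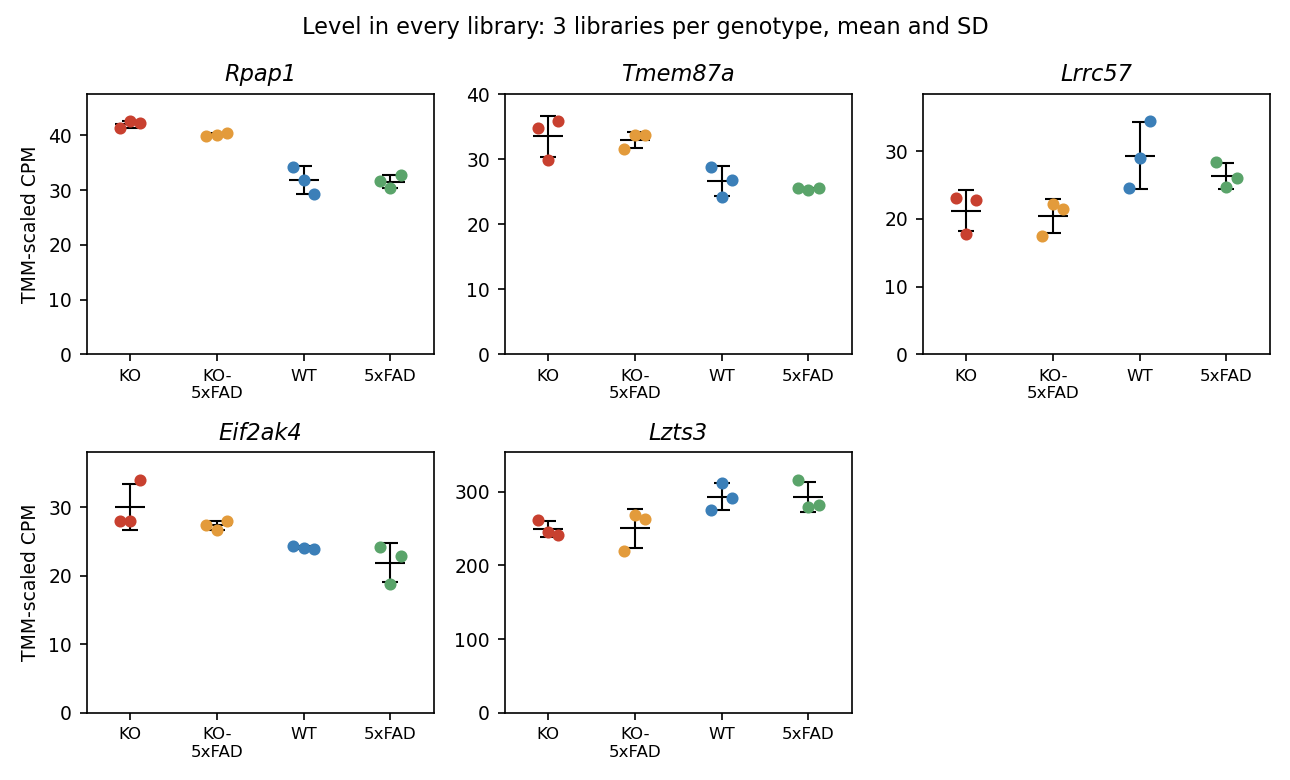
TMM-scaled CPM of 5 of the 6 flanking genes whose knockout and intact libraries do not overlap, in each of 3 libraries per genotype (points), with mean and SD (bars). In each panel the Kcnip3 KO and Kcnip3 KO-5xFAD libraries sit on one side of the WT and 5xFAD libraries; for Rpap1 that is 39.8 CPM or more against 34.2 CPM or less.

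Promoter sequence is shown for 4 of these genes because the protein that Kcnip3 encodes binds the letters GTCA. Each is 300 bases of RefSeq on GRCm38.p6, the assembly of mm10, from 250 bases before the start of transcription to 50 after it, given 5′ to 3′ on the gene's own strand. Capitals mark GTCA or its reverse complement TGAC. The windows are chr2:119787488-119787787 for Rpap1, chr2:120404067-120404366 for Tmem87a, chr2:120609459-120609758 for Lrrc57 and chr2:130642795-130643094 for Lzts3, all on the minus strand.
Rpap1: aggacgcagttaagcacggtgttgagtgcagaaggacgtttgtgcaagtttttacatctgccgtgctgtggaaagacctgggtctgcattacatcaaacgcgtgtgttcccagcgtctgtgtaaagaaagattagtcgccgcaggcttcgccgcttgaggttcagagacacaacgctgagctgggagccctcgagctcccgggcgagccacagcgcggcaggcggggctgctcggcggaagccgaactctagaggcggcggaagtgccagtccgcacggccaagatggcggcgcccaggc
Tmem87a: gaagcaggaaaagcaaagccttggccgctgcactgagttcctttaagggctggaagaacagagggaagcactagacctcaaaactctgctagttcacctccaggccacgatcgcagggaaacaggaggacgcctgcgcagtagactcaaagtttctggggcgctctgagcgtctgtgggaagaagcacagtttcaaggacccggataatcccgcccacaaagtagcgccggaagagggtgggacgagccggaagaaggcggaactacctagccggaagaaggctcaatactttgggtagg
Lrrc57: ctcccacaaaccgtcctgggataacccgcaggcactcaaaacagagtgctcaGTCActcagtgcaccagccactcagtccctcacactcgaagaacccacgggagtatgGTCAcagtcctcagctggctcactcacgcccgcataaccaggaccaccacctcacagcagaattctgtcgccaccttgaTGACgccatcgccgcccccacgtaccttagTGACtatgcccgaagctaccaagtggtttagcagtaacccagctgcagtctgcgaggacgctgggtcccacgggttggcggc
Lzts3: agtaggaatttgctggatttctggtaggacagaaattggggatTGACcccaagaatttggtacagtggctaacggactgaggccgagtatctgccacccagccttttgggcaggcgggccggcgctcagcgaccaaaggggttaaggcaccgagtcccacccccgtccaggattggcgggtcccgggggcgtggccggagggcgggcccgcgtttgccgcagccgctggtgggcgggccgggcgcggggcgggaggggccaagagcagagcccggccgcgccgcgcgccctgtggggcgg

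The letters GTCA occurred 0 times in the windows of Rpap1 and Tmem87a, both higher in every knockout library. They occurred 4 times in that of Lrrc57 and 1 time in that of Lzts3, both lower in every knockout library. The window of Eif2ak4 also held 4. Over the flanking genes, 164 of the tested ones matched a promoter by symbol, with 198 windows in all, and 82.8% of these windows held GTCA on either strand. Among all 32851 promoter windows of the same length 85.2% held it, so the flanking windows were near the background. The longer TGACGTCA, which contains GTCA, was in 2.53% of flanking windows and 1.79% of all windows. GGGCGG was in 64.6% against 35.7%, TATAAA in 4.04% against 13.6% and CCAAT in 36.4% against 37.4%. The flanking windows belong to tested protein-coding genes, while the set of all windows was not limited by level or type of gene. These shares thus compare unlike sets and were not tested. A match is only a run of letters, and a window without one says nothing of sites elsewhere.

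The same difference could be read in separate libraries, since Kcnip3 KO against WT and Kcnip3 KO-5xFAD against 5xFAD share none. No flanking gene was called in either by edgeR's quasi-likelihood test, where 0.0503% and 0.0692% of all tested genes were. At an unadjusted p under 0.05 there were 18 flanking genes (9.84%, against 4.51% of all tested genes) in Kcnip3 KO against WT, 9 higher and 9 lower (background 2.57% and 1.95%). In Kcnip3 KO-5xFAD against 5xFAD there were 29 (15.8%, against 10.4%), 18 higher and 11 lower (background 6.44% and 3.92%). Of the 18, 17 had the same sign in Kcnip3 KO-5xFAD against 5xFAD and 13 (72.2%) were also under 0.05 there. These 13 are 44.8% of the 29. Among all other tested genes, leaving out those set aside, 689 were under 0.05 in Kcnip3 KO against WT, and 51 of them (7.40%) were so with the same sign in Kcnip3 KO-5xFAD against 5xFAD. Without the libraries labelled Kcnip3 KO-5xFAD 2 and WT 3 the flanking count was 8 of 15 (53.3%), against 9.97% of other genes. It was also 8 without Kcnip3 KO-5xFAD 1 (42.1%, against 6.92%) and without 5xFAD 1 (34.8%, against 8.27%), and 11 without Kcnip3 KO 3 (57.9%, against 10.1%).

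Of the 13 genes, 10 lay between -8.98 and -6.85 Mb. They include Eif2ak4, Pak6, Gchfr, Exd1, Ltk, Rpap1, Mapkbp1, Tmem87a and Lrrc57. The other 3 were Sema6d at -2.79 Mb, Pced1a at 2.90 Mb and Lzts3 at 3.11 Mb. Eif2ak4 had log2 fold changes of 0.32 in Kcnip3 KO against WT and 0.32 in Kcnip3 KO-5xFAD against 5xFAD, and Rpap1 had 0.40 and 0.34. The interaction (the log2 fold change with the transgenes minus that without them) ran between -0.18 (Exd1) and 0.09 (Lrrc57) over the 13, a range that their selection by sign and p narrows.

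Several of the 13 had overlapping libraries, and the examples that follow were chosen after their values were seen. Mapkbp1 (-7.43 Mb), which encodes a scaffold that binds JNK, had 83.5, 83.0 and 81.4 CPM in Kcnip3 KO and 71.2, 56.2 and 77.8 CPM in Kcnip3 KO-5xFAD, against 58.4, 55.6 and 58.8 CPM in the WT libraries and 61.0, 49.6 and 50.1 CPM in 5xFAD. Only the library labelled Kcnip3 KO-5xFAD 2 overlapped the intact ones. Its log2 fold change was 0.44 ± 0.08 (SE; edgeR adjusted p = 0.104), and without Kcnip3 KO-5xFAD 2 it was called, at 0.50 with an adjusted p of 0.0177. Leaving out the very library that overlapped favours a call. Of the other fits without 1 library, only that without 5xFAD 1 called Mapkbp1 (edgeR adjusted p = 0.0435). DESeq2 called it with all libraries (adjusted p = 0.00271).

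Pced1a (2.90 Mb), a member of the PC-esterase family, had 37.0, 40.3 and 33.4 CPM in Kcnip3 KO and 40.9, 41.4 and 40.5 CPM in Kcnip3 KO-5xFAD, against 27.0, 31.4 and 26.1 CPM in the WT libraries and 33.4, 32.6 and 35.0 CPM in 5xFAD. Within each background the knockout libraries were higher, and across backgrounds Kcnip3 KO 3 overlapped 5xFAD. The log2 fold change was 0.34 ± 0.07 (SE; edgeR adjusted p = 0.302). Pak6 (-8.76 Mb), a p21-activated kinase, had 97.1, 75.0 and 98.9 CPM in Kcnip3 KO and 75.4, 81.1 and 80.4 CPM in Kcnip3 KO-5xFAD, against 101, 113 and 130.1 CPM in the WT libraries and 110.4, 93.4 and 91.6 CPM in 5xFAD. It was lower in knockout within each background, at a log2 fold change of -0.33 ± 0.09 (SE; edgeR adjusted p = 0.514).

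The largest folds of the 13 were of genes with few counts. Gchfr (-8.28 Mb), which encodes the feedback regulator of GTP cyclohydrolase, had 0.63, 1.21 and 1.27 CPM in Kcnip3 KO and 1.11, 0.67 and 1.60 CPM in Kcnip3 KO-5xFAD, against 0.53, 0.43 and 0.31 CPM in the WT libraries and 0.13, 0.57 and 0.72 CPM in 5xFAD. A count of 3 corresponds to 0.265 to 0.391 CPM, so several intact libraries were within a few counts of 0. Since Gchfr was chosen through its knockout libraries alone, its fold and its place among the 13 are a description only. Exd1 (-7.91 Mb), an RNA-binding exonuclease-domain protein, averaged 3.79 ± 1.41 CPM in knockout and 1.87 ± 0.52 CPM in intact libraries (SD, n = 6 each; log2 fold change 1.00 ± 0.27 SE). Spint1 (-8.21 Mb), an inhibitor of membrane serine proteases that was under 0.05 in knockout against intact and in Kcnip3 KO-5xFAD against 5xFAD but is not one of the 13, averaged 2.95 ± 1.42 CPM in knockout and 5.54 ± 2.56 CPM in intact libraries.

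Over all 183 genes the sign was the same in both backgrounds for 122 (66.7%), against 53.8% of all tested genes. Across genes, the 2 sets of log2 fold changes had a Pearson r of 0.45 and a Spearman rho of 0.49 for the flanking genes, against 0.10 and 0.07 for all tested genes. The points share sequencing depth and the spread of genes with few counts, and genes are not independent replicates. At lower coordinates r was 0.70 and rho 0.61 over 108 genes, and at higher coordinates r was -0.06 and rho 0.28 over 75 genes. From 10 to 20 Mb from Kcnip3 the sign was the same for 66.7% of 63 genes, close to the share within 10 Mb. There r was 0.57, above that of the flanking genes, and rho was 0.32, below theirs. Gchfr, Gpat2 and Prom2, whose sign the choice of genes fixed, are among the flanking genes in these values.

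**Figure D4:**
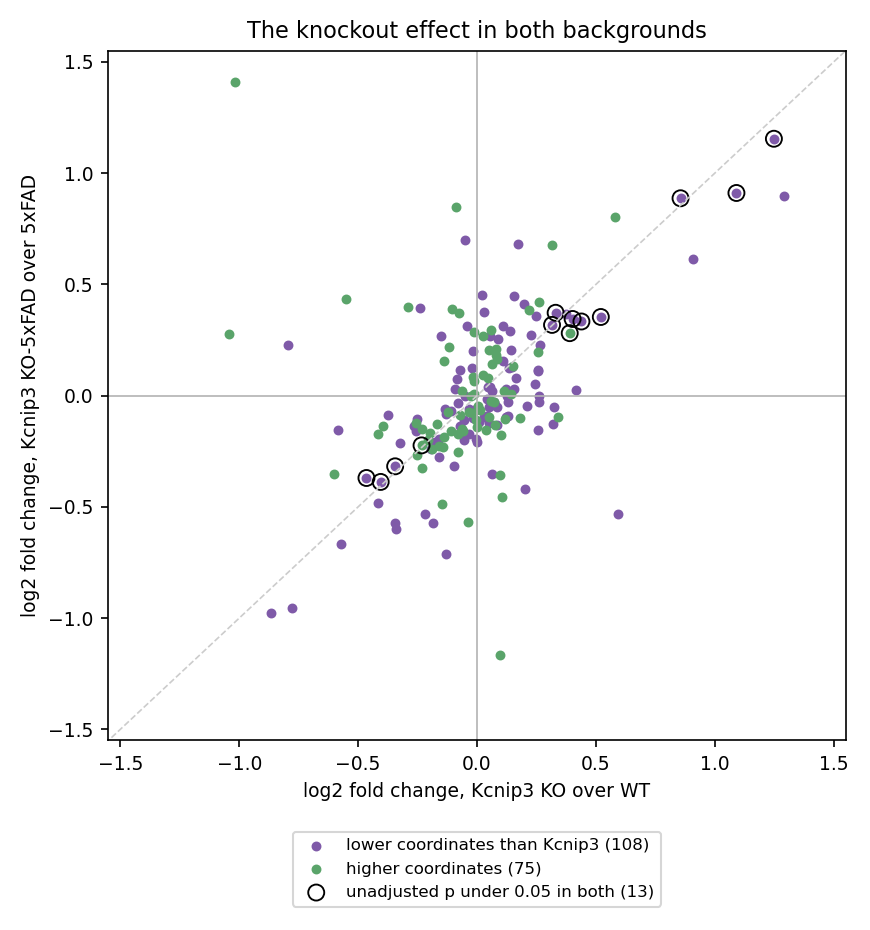
Log2 fold change of each tested flanking gene in Kcnip3 KO-5xFAD over 5xFAD against that in Kcnip3 KO over WT, 3 libraries each, with genes at lower coordinates than Kcnip3 in purple and at higher coordinates in green. The 13 circled genes had an unadjusted p under 0.05 in both comparisons and lie near the dashed line of equal change; the remaining genes crowd around 0.

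Held-out libraries gave a reading per library. For each library in turn, genes with an unadjusted p under 0.05 were taken from the fit without it, and the library was placed on the knockout or intact side of each, for the 30 to 47 flanking genes and for all other tested genes so chosen. The library labelled Kcnip3 KO 1 lay on the knockout side in 70.6% of the flanking genes and 70.4% of the other genes, Kcnip3 KO 2 in 83.3% and 60.0%, and Kcnip3 KO 3 in 52.3% and 57.7%. Kcnip3 KO-5xFAD 1 did so in 76.7% of the flanking genes and 36.1% of the other genes, Kcnip3 KO-5xFAD 2 in 47.1% and 38.1%, and Kcnip3 KO-5xFAD 3 in 67.6% and 41.5%. WT 1 lay on the intact side in 57.1% of the flanking genes and 26.4% of the other genes, WT 2 in 75.0% and 61.0%, and WT 3 in 46.5% and 19.8%. 5xFAD 1 did so in 76.6% of the flanking genes and 63.7% of the other genes, 5xFAD 2 in 78.8% and 77.7%, and 5xFAD 3 in 75.8% and 75.7%. In 8 libraries the share of flanking genes on the labelled side was thus above that of the other genes by 8.95 to 40.6 percentage points. In Kcnip3 KO 1, 5xFAD 2 and 5xFAD 3 it was at that background, within 1.09 points, and in Kcnip3 KO 3 it was below it.

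None of the 8 tested flanking genes nearest to Kcnip3, 4 on each side, had an unadjusted p under 0.05 in knockout against intact. Nearer genes with too few counts are not among them. Prom2, a prominin of membrane protrusions, lies 0.00438 Mb above Kcnip3 and had 0.94, 0.97 and 0.81 CPM in Kcnip3 KO and 0.78, 0.45 and 0.37 CPM in Kcnip3 KO-5xFAD, against 1.60, 0.32 and 0.63 CPM in the WT libraries and 1.78, 0.43 and 1.36 CPM in 5xFAD. The libraries overlapped, and 3 counts were again close to these levels. Fahd2a, 0.0119 Mb below Kcnip3, averaged 29.8 ± 2.71 CPM in knockout and 29.8 ± 1.81 CPM in intact libraries (SD, n = 6 each). Mrps5, a protein of the mitochondrial ribosome, averaged 44.9 ± 1.35 CPM in knockout and 45.5 ± 2.36 CPM in intact libraries, and its libraries overlapped.

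Gpat2, a mitochondrial acyltransferase 0.0204 Mb below Kcnip3, was chosen through its knockout libraries alone and had a log2 fold change of 1.09 ± 0.52 (SE; edgeR adjusted p = 0.590). It had 0.21, 2.17 and 1.38 CPM in Kcnip3 KO and 0.89, 0.45 and 1.11 CPM in Kcnip3 KO-5xFAD, against 0.64, 0.11 and 0.73 CPM in the WT libraries and 0.38, 0.57 and 0.36 CPM in 5xFAD. The knockout libraries spread widely and overlapped the intact ones. Dusp2, a phosphatase of MAP kinases, had a log2 fold change of -0.37 ± 0.27, and Stard7, which moves phosphatidylcholine, one of 0.13 ± 0.07. Zfp661, a zinc finger protein, had 0.14 ± 0.13 and Mal, a proteolipid of myelin, 0.12 ± 0.14 (all SE). All 8 had adjusted p-values of 0.590 or more in edgeR. Beside Mal, the 6 oligodendrocyte markers were all higher on average in knockout, with summed levels of 4478 to 8619 CPM in knockout libraries and 3390.1 to 8029 CPM in intact ones, and 0 of the 6 were called. Their part in any result here was not tested.

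Grouped by what they do, no flanking gene was called in any group in either direction. The shares at an unadjusted p under 0.05 given here stand beside 21.9% of all flanking genes and 8.47% of all tested genes, and their differences between groups were not tested. The lists overlap, so some genes, such as Eif2ak4 and Gabpb1, are counted in several groups. Of 27 tested genes of RNA processing, transcription and translation, 9 (33.3%) had an unadjusted p under 0.05, 5 higher and 4 lower in knockout, with a median log2 fold change of 0.04. Srp14, a subunit of the signal recognition particle, averaged 128 ± 13.6 CPM in knockout and 112 ± 15.8 CPM in intact libraries (SD, n = 6 each; log2 fold change 0.19). Zfp106, an RNA-binding zinc finger protein, averaged 169 ± 16.0 CPM in knockout and 160.3 ± 10 CPM in intact libraries. Of 24 genes of membrane traffic and ubiquitin, 7 (29.2%) were under 0.05, 5 higher and 2 lower. In that group Chp1, a calcineurin-like calcium-binding protein, averaged 123 ± 14.7 CPM in knockout and 126 ± 9.19 CPM in intact libraries, and Tmem127, an endosomal membrane protein, 150.1 ± 9.08 CPM in knockout and 146 ± 11.2 CPM in intact ones.

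Of 23 genes listed for the synapse and neuronal signalling, 5 (21.7%) were under 0.05, 3 higher and 2 lower. Among the 3 higher is Gabpb1, which encodes a transcription factor subunit, not a synaptic protein, and is also counted in the transcription group. Of the 23, 16 were lower in knockout at any size. Itpka, the inositol trisphosphate kinase of dendritic spines, had 192, 174 and 220.4 CPM in Kcnip3 KO and 170.0, 262 and 186 CPM in Kcnip3 KO-5xFAD, against 203, 295 and 244 CPM in the WT libraries and 266, 373 and 299 CPM in 5xFAD. Within the 5xFAD background the 3 knockout libraries were lower, while WT 1 overlapped Kcnip3 KO. The log2 fold change was -0.47 ± 0.13 (SE; edgeR adjusted p = 0.514). Ptpra, a receptor tyrosine phosphatase, averaged 211 ± 8.52 CPM in knockout and 215 ± 25.0 CPM in intact libraries.

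The remaining lists had smaller shares. Of 24 genes of mitochondria and metabolism, 2 (8.33%) were under 0.05, at the background of all tested genes, and the median absolute log2 fold change was 0.06, below the 0.11 of all tested genes. Idh3b, a subunit of isocitrate dehydrogenase, averaged 309.8 ± 19.7 CPM in knockout and 326 ± 36.0 CPM in intact libraries, and Ckmt1, the mitochondrial creatine kinase, 295 ± 25.1 CPM in knockout and 293 ± 31.3 CPM in intact ones. Of 15 genes of cell division and chromosomes, 3 (20%) were under 0.05, 1 higher and 2 lower, with Mcm8, a helicase of DNA repair, among the lower ones. Cenpb, a centromere protein, averaged 267 ± 28.5 CPM in knockout and 279 ± 56.7 CPM in intact libraries, and Trp53bp1, a DNA damage response protein, 83.0 ± 11.5 CPM in knockout and 79.9 ± 4.95 CPM in intact ones.

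Of 12 genes of immunity and inflammation only Eif2ak4 (8.33%) was under 0.05, also at that background. Tyro3, a receptor tyrosine kinase that binds Gas6, averaged 243 ± 51.8 CPM in knockout and 262 ± 43.3 CPM in intact libraries, and Pdia3, a disulfide isomerase of the endoplasmic reticulum, 201 ± 23.2 CPM in knockout and 188 ± 20.4 CPM in intact ones. Markers of microglia, the resident immune cells of the brain, summed to 372 to 1162 CPM in knockout libraries and 366 to 1474 CPM in intact ones, with 1 of 8 higher on average in knockout and 0 called. Of 20 genes of matrix, growth factors and membrane transport, 3 (15%) were under 0.05, Trpm7 higher and Spint1 and Cpxm1 lower. Slc20a1, a phosphate transporter, averaged 147 ± 23.1 CPM in knockout and 158 ± 7.04 CPM in intact libraries, and Slc23a2, a vitamin C transporter, 107 ± 13.6 CPM in knockout and 105 ± 20.9 CPM in intact ones. The 47 genes in no list had 12 (25.5%) under 0.05, 5 higher and 7 lower.

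The flanking genes with the highest counts had small log2 fold changes. Prnp, the prion protein gene, averaged 915 ± 44.3 CPM in knockout and 916 ± 71.1 CPM in intact libraries (SD, n = 6 each; log2 fold change -0.0018 ± 0.07 SE), and its sign turned when libraries were scaled by size alone. Per length, the tested flanking genes spanned 0.687 TPM, for Prom2, to 1269 TPM, for Prnp, averaged over all libraries, with a median of 17.0 TPM. Map1a, a microtubule-associated protein of dendrites, averaged 1135 ± 47.3 CPM in knockout and 1223 ± 91.6 CPM in intact libraries. Chgb, a protein of secretory granules, averaged 524 ± 104 CPM in knockout and 566 ± 51.6 CPM in intact libraries. Cds2, an enzyme of phosphoinositide synthesis, Sirpa, a receptor for CD47, and Disp2, a Dispatched-family protein, had log2 fold changes of -0.05, -0.05 and -0.04, each with an SE of 0.08 or less.

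Whether the knockout difference itself differed between backgrounds was tested by the interaction. No flanking gene passed, and none of all 15905 tested genes did (0.0%) in edgeR's quasi-likelihood test. At an unadjusted p under 0.05 there were 5 of 183 (2.73%), against 5.26% of all tested genes, 4 positive and 1 negative (background 3.48% and 1.78%), and the median absolute interaction was 0.13 over the flanking genes and 0.19 over all. Ankrd63 and Smox had the interactions largest relative to their SE among tested flanking genes at 5 CPM or more. By size alone others were larger than that of Smox, such as Mga at 0.75. Ankrd63, at -8.75 Mb, had 17.0, 14.3 and 15.5 CPM in Kcnip3 KO and 24.5, 18.2 and 23.1 CPM in Kcnip3 KO-5xFAD, against 21.1, 24.8 and 35.6 CPM in the WT libraries and 18.0, 21.3 and 17.1 CPM in 5xFAD. Kcnip3 KO was below WT in every library, while Kcnip3 KO-5xFAD overlapped 5xFAD. The log2 fold changes were -0.80 in Kcnip3 KO against WT and 0.23 in Kcnip3 KO-5xFAD against 5xFAD, with an interaction of 1.02 (edgeR adjusted p = 0.853).

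Smox, spermine oxidase, at 3.97 Mb, had 66.9, 69.0 and 80.4 CPM in Kcnip3 KO and 66.6, 67.3 and 65.1 CPM in Kcnip3 KO-5xFAD, against 78.2, 60.0 and 62.8 CPM in the WT libraries and 83.2, 103 and 87.9 CPM in 5xFAD. It was lower in Kcnip3 KO-5xFAD than in 5xFAD in every library, and Kcnip3 KO overlapped WT. The interaction was -0.56 (edgeR adjusted p = 0.853). Neither interaction passed the test with the filter on low counts. With no filter that of Ankrd63 was called, at 1.01 with an adjusted p of 0.00425, as was that of Adam33, at 1.30 with 0.0232 (edgeR).

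Genes that adjoin each other did not share a sign more often than not. Of 168 pairs of neighbouring tested flanking genes, 84 (50%) had the same sign in knockout against intact. Of the 14 pairs that start head to head within 1 kb, 8 (57.1%) did. Signs were mixed even among near genes, as where Itpka and Ltk, with negative log2 fold changes, adjoin Rpap1, with a positive one.

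The 3 flanking genes not tested had few counts. Fam227b, at -1.30 Mb, had 2, 13 and 8 counts in Kcnip3 KO and 9, 13 and 4 counts in Kcnip3 KO-5xFAD, against 0, 1 and 2 counts in the WT libraries and 1, 1 and 0 counts in 5xFAD. Kcnip3 KO 1 was level with WT 3, and the other knockout libraries were above all intact ones. Ell3, which encodes an elongation factor of RNA polymerase II, had 4, 0 and 4 counts in Kcnip3 KO and 3, 3 and 2 counts in Kcnip3 KO-5xFAD, against 7, 10 and 14 counts in the WT libraries and 11, 8 and 10 counts in 5xFAD. Every knockout library was lower, and 63.2% of the 31-base words of Ell3 transcripts also occur in Serinc4, so reads may be split between them. Fgf7, a fibroblast growth factor, had 5 to 11 counts in knockout libraries and 4 to 12 in intact ones. Fam227b and Ell3 were also nearest the level that the choice of genes required, at 1.01 and 1.06 CPM in the last of the 3 libraries needed, and Siglec1 (0.985 CPM) and Mall (0.973 CPM) fell just short there. With no filter, Fam227b was called higher (edgeR adjusted p = 3.0e-05) and Ell3 lower (0.0062) in knockout against intact. Fam227b had passed 1 CPM in knockout libraries only and Ell3 in intact libraries only, so the choice of genes fixed these directions and the calls support nothing.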

How the data were processed

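Per the labels' protocols, Trizol RNA from fresh hippocampus went into TruSeq mRNA libraries. Alignment was to mm10 with HISAT2 2.1.0, quality control used FastQC 0.11.9, and featureCounts and edgeR 3.38.4 (R 4.2.1) are also listed, all per the submitters' processing notes; no strand setting is given. The authors deposited raw read counts per gene, used for every comparison, and log2 TPM values, used as an alternative and for levels per length. Gene positions are those of GENCODE M21 on the same assembly; 241 genes without a match held 0.00278% of counts.

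A single edgeR model (version 4.0.16, R 4.3.3) covered all 12 libraries, with a mean for each genotype, TMM scaling, genes filtered by filterByExpr and robust quasi-likelihood dispersions. Adjusted p-values are Benjamini-Hochberg values over 15905 genes. Knockout against intact is the mean of both knockout genotypes minus that of both intact ones. The alternatives were other scalings and filters, DESeq2 1.42.0, limma 3.58.1 (voom and log2 TPM), an additive fit, a replicate block and leaving out libraries.

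The flanking genes and lists were chosen with earlier results of these data known. By rule, the text names flanking genes whose libraries do not overlap, the 4 nearest on each side, the 6 with the highest counts, up to 2 further per functional list, the 2 strongest interactions at 5 CPM or more and the 2 at each end. Others were chosen after their values were seen. Intervals given by counts cover counting error only. A few flanking genes are included in the counts but not reported here by name.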

Additional observations from a re-analysis of the deposited data

Results flagged for a closer look

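Dixon's test at the 95% level singled out 5 library values among 82 groups of 6 libraries. Chance alone singles out about 1 in 20 groups. Eif2ak4 had 33.9 CPM in Kcnip3 KO 3, against 26.7 to 28.0 CPM in the other 5 knockout libraries, and 18.7 CPM in 5xFAD 2, against 22.8 to 24.4 CPM in the other 5 intact libraries. Smox had 80.4 CPM in Kcnip3 KO 3, against 65.1 to 69.0 CPM in the other 5 knockout libraries. Cds2 had 662 CPM in WT 3, against 546 to 579 CPM in the other 5 intact libraries. Kcnip3 itself had 125 CPM in Kcnip3 KO 3, against 63.4 to 84.9 CPM in the other 5 knockout libraries. Kcnip3 KO 3 thus held 3 of the 5 values.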

How the results depend on the processing

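No flanking gene was called with either other scaling, limma-voom, limma on log2 TPM or the replicate block. With no filter, 6 were called higher and 6 lower in knockout against intact, where 0.931% of all 31787 genes were called. Fam227b and Ell3 are among these, and the choice of genes fixed their directions. In the same fit 2 were called higher and 2 lower in Kcnip3 KO against WT. There were 3 higher and 3 lower in Kcnip3 KO-5xFAD against 5xFAD, with Fam227b among the higher ones in both. The interaction had 2 calls (Ankrd63 and Adam33). Shares of all genes called are not given here for these other comparisons. In 10 flanking genes the libraries did not overlap, against 0.22% of all genes. A filter of 50 counts and the additive fit each called 1 higher (Rpap1), where 0.098% and 0.088% of all genes were called. DESeq2 called 2 higher (Rpap1 and Mapkbp1), where 0.0818% of all genes were called, and 1 higher (Mapkbp1) in Kcnip3 KO against WT. Without Kcnip3 KO-5xFAD 2 and WT 3, 1 was called higher (Mapkbp1), where 0.0809% of all genes were called. In that setting 13 did not overlap (1.58% of all genes did not), and 8 in place of 13 were under 0.05 with 1 sign in both backgrounds. Leaving out 1 library gave 0 to 1 called higher, where 0.0742% to 0.111% of all genes were called. It gave 7 to 12 that did not overlap (11 without Kcnip3 KO 1, 12 without 5xFAD 3), against 0.37% to 0.754% of all genes. Between 8 and 15 were under 0.05 in both backgrounds. The count at an unadjusted p under 0.05 was 31 to 48 over all settings, with 3.96% to 13.7% of all genes. Replicate numbers did not pair the samples (correlations of -0.55 to 0.39), and with the replicate block 39 were under 0.05 and 6 did not overlap. Genes near 1 CPM, such as Gchfr and Gpat2, rest on few counts per library, which limits what this depth can show.

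Signs that turned belonged to log2 fold changes near 0. Scaling by size alone gave 0.015 for Fahd2a and 0.019 for Prnp, and limma on log2 TPM 0.034 for Fahd2a, 0.020 for Mrps5, 0.039 for Prnp, 0.00277 for Disp2, 0.018 for Ptpra and 0.00470 for Chp1. Prnp was 0.000332 with limma-voom and 0.000564 with the block. Without Kcnip3 KO-5xFAD 2 and WT 3, Prnp was 0.013, Sirpa 0.014 and Ckmt1 -0.018. Leaving out 1 library gave ranges of -0.032 to 0.031 for Fahd2a, -0.0415 to 0.000382 for Mrps5, -0.039 to 0.032 for Prnp, -0.12 to 0.0038 for Cenpb, -0.0028 to 0.10 for Trp53bp1, -0.063 to 0.017 for Ptpra, -0.020 to 0.0675 for Ckmt1, -0.079 to 0.0064 for Chp1, -0.057 to 0.14 for Slc23a2, -0.019 to 0.054 for Gpr176 and -0.063 to 0.24 for Slx4ip. The causes were not tested.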
